A study of Homo sapiens with 9 samples.

Results

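The comparison set 3 libraries of A431 cells with p53 knocked out (p53 KO) against 3 libraries of the parental A431 line, 6 of the 9 libraries in the series. A431 is a human epidermoid carcinoma line, derived from squamous epithelium, that expresses an endogenous mutant form of p53, so the contrast concerns the loss of a mutant p53 and not of a wild-type one. The p53 KO line had been made by lipofection of GFP-bearing CRISPR constructs directed at p53. The 3 libraries left over, Ctrl, came from A431 cells that carry the endogenous mutant p53 and had received the matching empty vector. Cells of all groups were first grown as single colonies, were then plated in 6-well plates in the same serum-containing medium and were harvested 48 h after settling, with no drug named. Poly(A) RNA was sequenced as strand-specific libraries. All genes in the count table were members of the comparison: 14513 of 58051 genes had enough reads to be tested. The labels do not say whether the 3 libraries of a group came from separate cultures or from 1 colony, so p-values measure the spread between these libraries, and differences between colonies and the loss of p53 cannot be told apart.

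As background, p53 is a sequence-specific transcription factor that acts as a tetramer. Wild-type p53 is held low by the ubiquitin ligase MDM2, is stabilised by DNA damage and other stress, and then switches on genes of cell cycle arrest, DNA repair and apoptosis. Missense mutations in its DNA-binding domain, common in squamous carcinoma, impair binding to its own response elements, and mutant proteins often accumulate and can act through other transcription factors. Squamous epithelium is known for its keratins, desmosomes, tight junctions and a programme of terminal differentiation.

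The p53 paralog TP63, a keratinocyte master factor, was read at 71.7, 74.4 and 70.13 CPM (reads of the gene relative to the reads of the library, in counts per 1000000, scaled between libraries by the trimmed mean of M-values) in the parental libraries and at 87.8, 80.25 and 68.8 CPM in the p53 KO libraries. The groups overlapped, and the log2 fold change of p53 KO over parental was 0.13 ± 0.17 (standard error, SE, n = 3 against 3), with an adjusted p of 0.627 by edgeR's quasi-likelihood test. The other paralog, TP73, had too few reads to be tested. SH3BGRL, the gene that the study follows, fell from 7.12, 7.35 and 7.89 CPM to 1.54, 1.103 and 0.943 CPM (log2 fold change -2.60 ± 0.15, adjusted p = 2.16e-06), with every p53 KO library below every parental one and 11.4, 11.7 and 11.7 CPM in Ctrl.

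The libraries held 20597162 to 29840452 counts. Log2 CPM values correlated at 0.9933 to 0.9957 within the parental and p53 KO groups and at 0.9791 to 0.9837 between them. Mitochondrially encoded genes took 1.39% to 2.7% of the reads in parental and 1.29% to 2.08% in p53 KO libraries, and genes of cytosolic ribosomal proteins 4.19% to 4.45% and 4.93% to 5.6%. Of the 9 markers of squamous epithelium, 8 were tested: EPCAM, KRT5 and KRT6A rose, CDH1 fell (the calls of EPCAM and CDH1 were lost in fits without 1 library), and EGFR, TP63, KRT17 and DSG3 were not called. The ninth, the basal keratin KRT14, was at 0 to 0.0461 CPM in parental and 0.266 to 0.436 CPM in p53 KO libraries. EGFR, which this line expresses at very high level, had 17319.8, 14357 and 16024 CPM in parental and 13725, 13743 and 13036 CPM in p53 KO libraries (adjusted p = 0.126). Summed levels of the 6 fibroblast markers were 3.92 to 4.42 CPM in parental and 2.38 to 3.62 CPM in p53 KO libraries, of the 5 blood markers 0.50 to 0.88 and 0.35 to 0.57 CPM, of the 3 endothelial markers 0.38 to 0.65 and 0.40 to 0.53 CPM, and of the 4 melanocyte markers 10.4 to 12.7 and 11.2 to 13.2 CPM. PTPRC and CD3E, which define blood cells, and COL1A2, COL3A1, LUM and DCN, which define fibroblasts, were at 0 in all 6 libraries. None of the non-epithelial markers tested was called. In these bulk libraries, fewer cells of a kind and less RNA per cell cannot be told apart.

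Of the 14513 genes tested, 2631 were called at an adjusted p of 0.05 or less (18.1%), of which 1418 rose in p53 KO cells (9.77%) and 1213 fell (8.36%). Calls past a log2 change of 1.5 numbered 283 (1.95%), 179 up and 104 down. The 3 p53 KO libraries lay wholly above or below the 3 parental libraries at 47.4% of all genes tested, called or not, and at every called gene. A log2 change of at most 0.5 was seen in 582 genes that rose and 590 that fell (44.5% of the calls), of 0.5 to 1 in 526 and 406 (35.4%), of 1 to 1.5 in 131 and 113 (9.27%), and above 1.5 in 179 and 104 (10.8%). Median expression of the called genes fell with the size of the change, from 50.4 CPM among the smallest called changes through 17.2 and 2.61 CPM to 0.889 CPM among the largest. Small changes pass the test more readily in genes with many reads, so this order cannot be told apart from the reach of the test. Counts of calls fell in each fit without 1 library, whichever library was left out. They came to 1568 without parental replicate 1, 1696 without parental replicate 2, 1689 without parental replicate 3, 1738 without p53 KO replicate 1, 1786 without p53 KO replicate 2 and 1771 without p53 KO replicate 3, and the genes that fell to between 693 (without parental replicate 1) and 775 (without p53 KO replicate 2), each of these 6 counts being below the 1213 by over 1.5 times. Calls past 1.5 ranged from 274 to 301 in the same fits. In all 6 fits 1356 genes kept their call, 770 up and 586 down, among them 249 of the 283 large ones. A gene said below to have risen or fallen is one of these 1356 unless the text says that its call was lost in a fit without 1 library. Values written with ± below are log2 fold changes of p53 KO over parental with their SE, as fitted by edgeR, and ratios are of summed counts scaled for depth. Ctrl against parental, which uses the same parental libraries, called 2943 genes (20.3%).

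**Figure D1:**
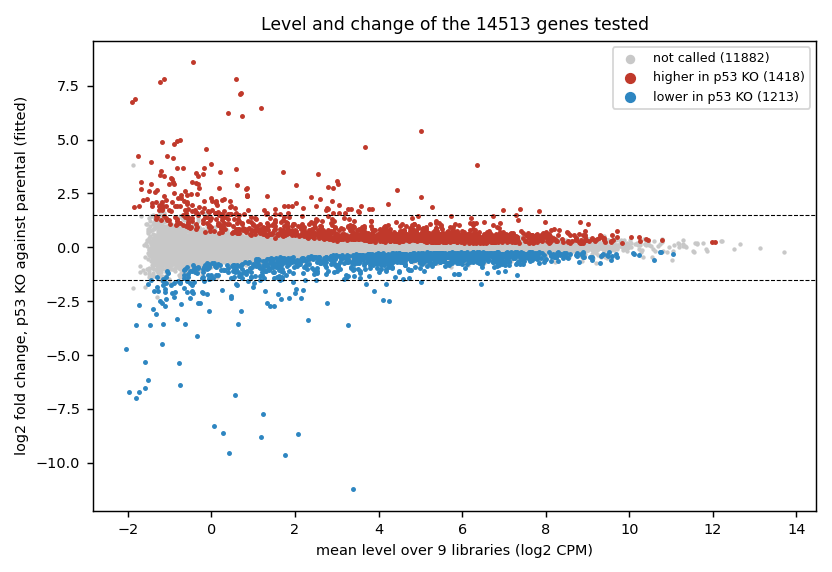
Each point is 1 of the 14513 genes tested, with its mean level over the 9 libraries on the x axis (log2 CPM) and its fitted log2 fold change of p53 KO over parental on the y axis. Red points are the 1418 genes that rose, blue points the 1213 that fell, grey points the genes not called, and dashed lines mark a change of 1.5 each way, beyond which 283 called genes lie, mostly at low expression.

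Protein-coding genes held most of the calls, with 1303 that rose and 1062 that fell of 11890 tested (19.9% called), against 73 and 96 of 1486 long non-coding RNAs (11.4%). By function, 3563 genes on at least 1 of 87 lists of gene families and pathways were compared with all genes. Lists of secreted proteins had the highest share called, 80 that rose and 32 that fell of 278 (40.3%), and 8.99% of them were past 1.5. Lists of cell surface proteins had 116 and 101 of 691 (31.4%, with 4.34% past 1.5). Intracellular functions had 191 and 103 of 1196 (24.6% and 4.10%), and regulatory genes 147 and 109 of 1455 (17.6% and 2.06%), close to the 18.1% and 1.95% of all genes. The median log2 change was 0.15 for secreted proteins against 0.0065 for all genes tested.

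**Figure D2:**
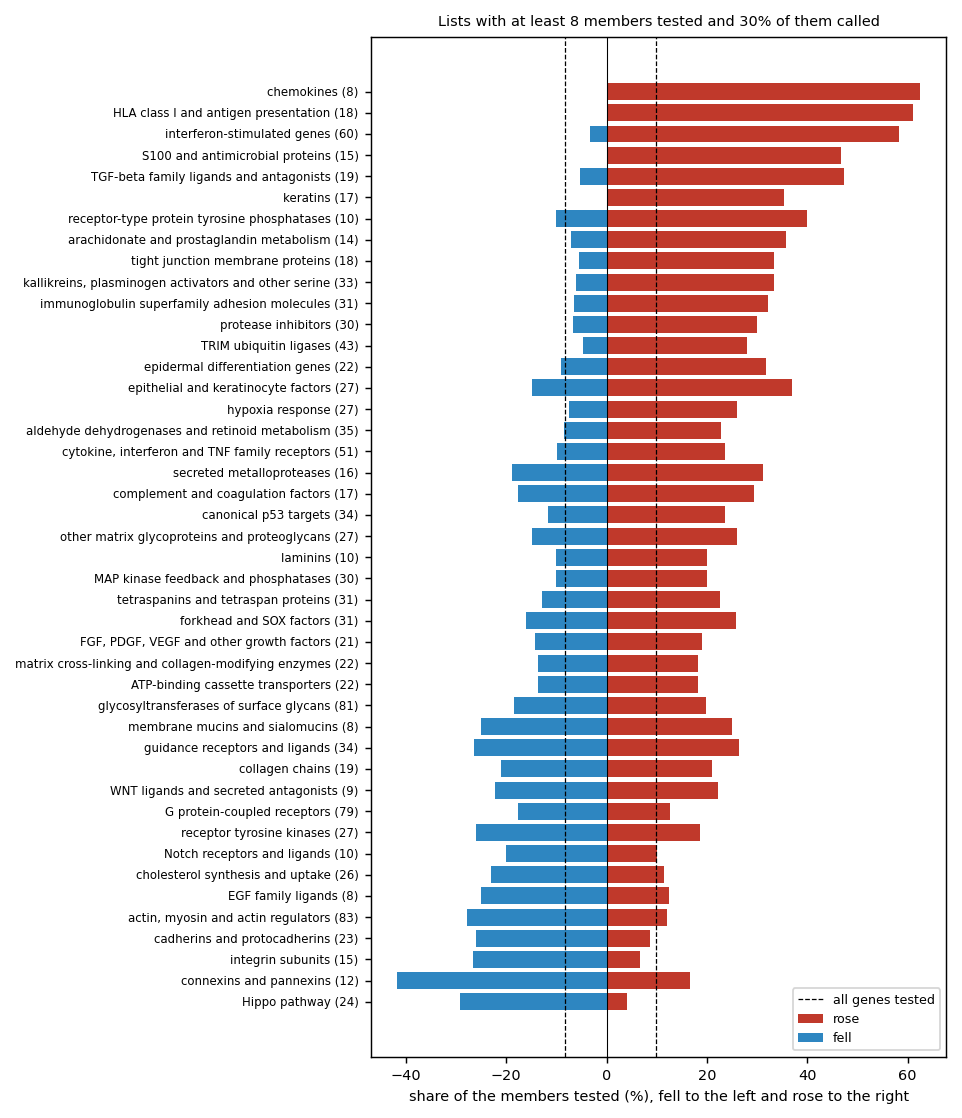
Bars show, for the 44 lists with at least 8 members tested of which 30% or more were called, the share of tested members that rose (red, to the right) and fell (blue, to the left), in percent, with the number tested in parentheses. Dashed lines mark the shares of all genes tested, 9.77% up and 8.36% down; chemokines, HLA class I and interferon-stimulated genes stand at the top and the Hippo pathway and connexins at the bottom.

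RSAD2 showed the largest rise of any gene with more than 3 counts in both groups. RSAD2 encodes viperin, an antiviral enzyme of the interferon response, and its level was 2.37, 2.08 and 2.17 CPM in parental and 99.5, 92.3 and 88.3 CPM in p53 KO libraries. All 3 p53 KO libraries stood far above the parental ones and above the 1.07, 1.65 and 0.991 CPM of Ctrl (log2 fold change 5.40 ± 0.14, adjusted p = 8.80e-09). CASP14, the caspase of cornifying keratinocytes, had 1.11, 1.19 and 1.25 CPM in parental and 36.7, 27.1 and 25.8 CPM in p53 KO libraries (log2 fold change 4.66 ± 0.18, adjusted p = 1.77e-07), again without overlap, and 6.42, 7.38 and 6.25 CPM in Ctrl. The non-coding RNA AC079466.1 (ENSG00000266976, chr19:28606688-28615229, plus strand) rose from 15.4, 17.7 and 15.4 CPM to 250.2, 239.6 and 197 CPM, by 3.82 ± 0.12, and stood at 0.153, 0.141 and 0.267 CPM in Ctrl, so that the 3 groups were fully separated. It overlaps the antisense gene AC005307.5, which also rose, and the strand setting of the counting is not given in the sources used here.

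The other 7 genes completed the 10 largest rises. KRT6B rose by 3.88 ± 0.35, B3GNT7, a glycosyltransferase, by 3.69 ± 0.49, ETV1, an ETS transcription factor, by 3.66 ± 0.46, and RPS6KA2, a kinase downstream of ERK, by 3.61 ± 0.31. CCL22, a chemokine for T cells, rose by 3.50 ± 0.26, PTPRR, a receptor-type phosphatase of MAP kinases, by 3.50 ± 0.32, and SPNS2, the exporter of sphingosine 1-phosphate, by 3.46 ± 0.49. ETV1 and RPS6KA2 lie in stretches of chromosomes 7 and 6 whose genes rose as a whole, described further down.

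SATB1, a chromatin organiser that is needed in epidermal and lymphoid cells, headed the genes that fell. Its level was 11.4, 10.62 and 11.2 CPM in parental and 0.805, 1.25 and 0.595 CPM in p53 KO libraries, and 13.6, 17.6 and 18.7 CPM in Ctrl. The p53 KO libraries were the only ones below 2 CPM (log2 fold change -3.61 ± 0.21, adjusted p = 2.05e-06). BATF, an AP-1 family factor, fell (-3.57 ± 0.46) to 0.0671, 0.114 and 0.199 CPM, TMEM64 (-3.37 ± 0.24), MAN1A1, a Golgi mannosidase, (-2.97 ± 0.33), and MXRA7 (-2.96 ± 0.32). EN1, a homeobox factor, fell (-2.73 ± 0.22), the calcium sensor HPCAL4 (-2.71 ± 0.52), GKN1 (-2.63 ± 0.53), C1orf21 (-2.74 ± 0.21), and MERTK, a receptor tyrosine kinase for the engulfment of apoptotic cells, (-2.61 ± 0.28). MERTK stood at 1.42, 1.42 and 1.57 CPM in parental, 0.235, 0.1902 and 0.298 CPM in p53 KO and 0.306, 0.597 and 0.458 CPM in Ctrl, so that it was lowest in p53 KO libraries.

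Several genes were read in only 1 of the 2 groups. Among called genes, 29 had at most 3 counts in every p53 KO library and 30 had at most 3 in every parental library. PLOD2, the lysyl hydroxylase of collagen telopeptides, had 11.02, 11.1 and 13.8 CPM in parental, no read in the p53 KO libraries and 14.4, 22.5 and 20.74 CPM in Ctrl, which makes it at least 98.8-fold lower against a floor of 3 counts per library. ALDH2, the mitochondrial aldehyde dehydrogenase, went from 3.405, 3.38 and 5.08 CPM to no read (at least 32.6-fold lower), with 6.99, 6.04 and 5.299 CPM in Ctrl. ADD2, an adducin of the membrane skeleton, went from 4.13, 3.73 and 3.46 CPM to no read (at least 31.1-fold lower), but had no read in Ctrl either. For HLTF, a helicase-like factor of DNA damage tolerance, parental counts exceeded p53 KO counts by a depth-scaled ratio of 137 (95% interval 37.7 to 1140.5), an exact binomial interval of counting error only, and for ZNF813, a zinc finger gene, by 294 (95% interval 52.4 to 11670.5). PLOD2 and HLTF lie on the part of chromosome 3 whose genes fell as a whole.

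In the other direction, AUTS2, a regulator linked to Polycomb complexes, had 0.0765, 0.0769 and 0.0461 CPM in parental and 6.41, 7.11 and 5.86 CPM in p53 KO libraries, a ratio of 96 (95% interval 40.90 to 297). PLCB4, a phospholipase C beta, had 0.0382, 0.0385 and 0 against 4.26, 5.096 and 4.32 CPM (ratio 168, 95% interval 46.3 to 1396), and ABCC9, a subunit of ATP-sensitive potassium channels, 0.0382, 0.0385 and 0 against 3.92, 4.22 and 5.46 CPM (ratio 164, 95% interval 44.9 to 1356). None of these 3 genes had a read in Ctrl. CSF2RA, the GM-CSF receptor alpha chain, had 0, 0 and 0.0461 against 4.76, 3.58 and 4.22 CPM (ratio 311, 95% interval 55.4 to 12309.7) and CEACAM5, a carcinoembryonic antigen, 0.0382, 0 and 0.0923 against 4.596, 2.74 and 2.88 CPM (ratio 86.1, 95% interval 29.2 to 4.2e+02), with at most 0.153 CPM of either in a Ctrl library. The low group of each rests on 1 to 5 reads over 3 libraries, so the upper bounds of these ratios are loose.

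**Figure D3:**
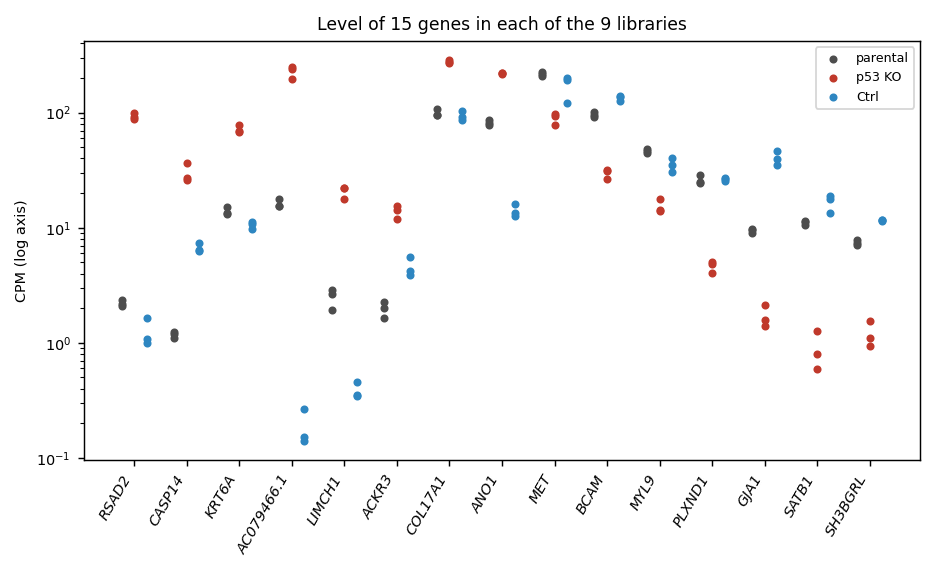
Levels of 15 genes (CPM, log axis) in each library, 1 point per library, for parental (dark grey), p53 KO (red) and Ctrl (blue). For each gene the 3 p53 KO points lie apart from the 3 parental points, from RSAD2 and CASP14 on the left to SATB1 and SH3BGRL on the right.

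Interferon-stimulated genes rose far more often than they fell: 35 of 60 tested rose and 2 fell, with a median log2 change of 0.56 (all genes 0.0065). As background, these genes are switched on by the factor ISGF3, which holds STAT2 and IRF9, or directly by other IRF proteins, through the interferon-stimulated response element in their promoters, and their products sense or block viral RNA. In the 6 fits without 1 library, 26 to 31 of the 60 were called, and 25 rose and 1 fell in every fit. Outside the shifted stretches of the genome described further down, the list kept 30 that rose and none that fell of 48. Ctrl levels are given beside the leading genes.

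The members were spread over roles. Among the RNA sensors, DDX58 (RIG-I) rose from 55.97, 55.6 and 65.9 CPM to 128, 125 and 115 CPM, by 1.06 ± 0.11, IFIH1 (MDA5) from 22.8, 25.7 and 25.1 to 37.3, 36.2 and 33.04 CPM, by 0.53 ± 0.11, and DHX58 by 1.21 ± 0.13. Their p53 KO libraries were all above the parental ones and above the Ctrl libraries, which for DDX58 held 39.01, 51.6 and 48.1 CPM. Of the oligoadenylate synthetases, which activate RNase L, OAS1 rose from 14.2, 17.2 and 16.98 to 65.4, 55.6 and 57.8 CPM (by 1.89 ± 0.13), OASL from 84.1, 86.4 and 97.99 to 319, 284 and 310.3 CPM (by 1.77 ± 0.10), OAS2 by 1.63 ± 0.12 and OAS3 by 0.57 ± 0.09. OAS1 was also high in Ctrl, at 48.8, 39.7 and 35.1 CPM, while OASL there was at 121, 102 and 93.7 CPM. The IFIT genes, which bind viral RNA, rose by 1.67 ± 0.07 (IFIT3), 1.15 ± 0.07 (IFIT1), 1.03 ± 0.10 (IFIT2) and 0.62 ± 0.09 (IFIT5), and IFIT3 went from 128, 129.8 and 141 to 441, 411 and 414 CPM. All 4 lie on the part of chromosome 10 whose median change was 0.45.

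IFI44 rose from 62.2, 68.4 and 75.9 to 238, 208 and 229 CPM (by 1.71 ± 0.09) and its neighbour IFI44L from 0.153, 0.115 and 0.277 to 2.01, 0.989 and 1.19 CPM (by 2.98 ± 0.41). HERC5, the ligase that attaches ISG15 to proteins, rose from 16.1, 17.5 and 20.53 to 50.59, 42.9 and 46.6 CPM (by 1.37 ± 0.11) and ISG15 itself from 52.3, 55.1 and 54.3 to 113, 101 and 142 CPM (by 1.14 ± 0.17). ISG15 in Ctrl ran from 49.9 to 83.0 CPM, overlapping the parental libraries and staying below the p53 KO libraries. MX2 rose by 1.83 ± 0.16, TRIM22 by 1.75 ± 0.20, XAF1 by 1.54 ± 0.15, EPSTI1 by 1.28 ± 0.16, DDX60 by 1.26 ± 0.18 and IFI6 by 1.11 ± 0.17. XAF1, an antagonist of apoptosis inhibitors, had 3.06, 2.74 and 3.13 CPM in Ctrl, which overlapped the p53 KO libraries at 3.35, 3.005 and 3.13 CPM.

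CMPK2, a mitochondrial nucleotide kinase, had 0.115, 0.0385 and 0.138 CPM in parental and 1.38, 0.989 and 1.49 CPM in p53 KO libraries, a ratio of 13.4 (95% interval 6.27 to 34.2). It is the neighbour of RSAD2 on the opposite strand of chromosome 2, with annotated ends that overlap by 1079 bases, so some of its reads may belong to RSAD2. PLSCR1, a phospholipid scramblase, was the member that fell in every fit, from 76.5, 80.51 and 78.01 to 64.8, 63.5 and 63.2 CPM, and lies on the shifted part of chromosome 3. Among the factors that switch these genes on, IRF9 had 0.459, 0.5001 and 0.5998 CPM in parental and 0.5703, 0.456 and 0.496 CPM in p53 KO libraries and did not pass the test (log2 change -0.01 ± 0.39, adjusted p = 0.984), nor did STAT2 (-0.10 ± 0.08, adjusted p = 0.432).

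**Figure D4:**
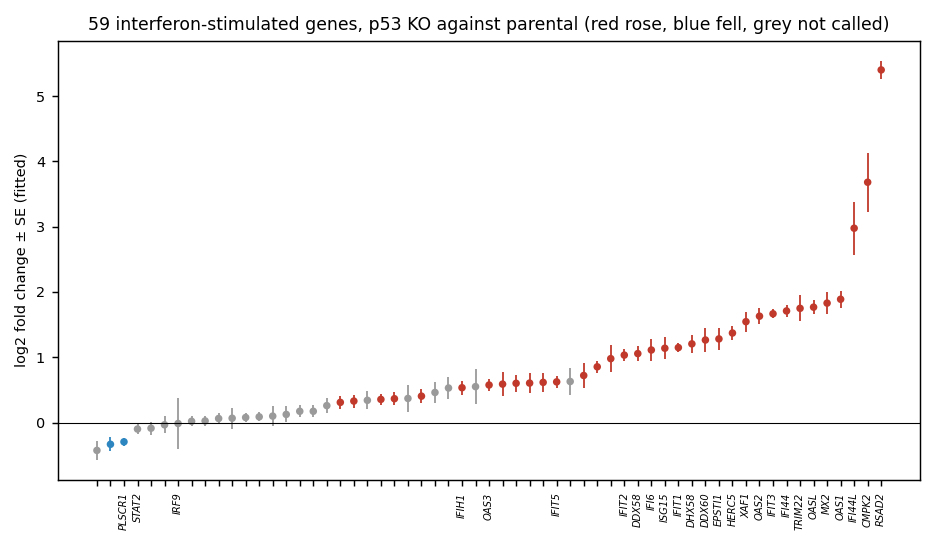
Fitted log2 fold change of p53 KO over parental with its SE for 59 of the 60 interferon-stimulated genes tested, in order of size, with the names of those described in the text. Red points are the 35 genes that rose, blue points the 2 that fell and grey points those not called; RSAD2 stands highest at 5.40, and STAT2 and IRF9 lie near 0.

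The core of the interferon-stimulated response element, GAAANNGAAA or its reverse complement TTTCNNTTTC, was searched on both strands in the 150 bases before each annotated start (RefSeq, GRCh38.p14). It was found in 488 of 27305 promoters (1.79%), in 133 of the 10464 tested genes with a promoter in the table (1.27%), in 33 of 1028 genes that rose (3.21%) and in 9 of 904 that fell (0.996%). Of the interferon-stimulated genes, 16 of 25 that rose held it (64.0%), as did 8 of 19 that were not called (42.1%). Windows of RSAD2, CMPK2 and OAS1 held no match to these letters. To show how the element sits before the start, the windows of the 4 members with a match that rose most are given, with the matches in capitals. IFI44L is at chr1:78620298-78620447, IFI44 at chr1:78649639-78649788, IFIT3 at chr10:89327847-89327996 and HERC5 at chr4:88456969-88457118, all on the plus strand.
IFI44L: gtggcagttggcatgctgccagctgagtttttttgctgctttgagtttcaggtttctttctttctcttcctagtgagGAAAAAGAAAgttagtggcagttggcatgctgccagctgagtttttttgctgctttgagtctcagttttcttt
IFI44: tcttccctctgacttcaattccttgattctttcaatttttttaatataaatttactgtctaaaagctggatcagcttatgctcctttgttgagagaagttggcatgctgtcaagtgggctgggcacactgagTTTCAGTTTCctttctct
IFIT3: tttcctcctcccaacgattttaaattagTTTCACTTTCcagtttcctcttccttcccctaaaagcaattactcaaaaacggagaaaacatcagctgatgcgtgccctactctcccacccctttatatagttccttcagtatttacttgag
HERC5: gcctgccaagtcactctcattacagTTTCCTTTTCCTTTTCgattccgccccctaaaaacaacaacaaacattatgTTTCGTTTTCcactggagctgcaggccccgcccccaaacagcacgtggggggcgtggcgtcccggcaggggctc
The match begins 73 bases before the start in IFI44L, 18 in IFI44 and 122 in IFIT3, and HERC5 holds 3 matches, at 125, 119 and 74 bases, the first 2 of which overlap.

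Antigen presentation moved in the same direction. Of 18 tested genes of HLA class I molecules and peptide loading, 11 rose and none fell, with a median log2 change of 0.40, and 6 rose in every fit without 1 library (6 to 10 per fit). HLA-B, a classical class I heavy chain, had 231, 224 and 237 CPM in parental, 368, 349.6 and 412 CPM in p53 KO and 186, 157 and 137 CPM in Ctrl libraries, so that p53 KO was highest and Ctrl lowest (log2 fold change 0.71 ± 0.11, adjusted p = 0.00101). HLA-F rose by 1.31 ± 0.19, from 1.301, 1.08 and 1.11 to 2.82, 2.89 and 2.98 CPM, and was nearly unread in Ctrl, at 0.05099, 0 and 0 CPM. B2M, the light chain they share, rose by 0.47 ± 0.08, TAP1, the peptide transporter, by 0.60 ± 0.09, NLRC5, the activator of class I genes, by 0.52 ± 0.09, and MICB, a stress ligand for natural killer cells, by 0.37 ± 0.06. B2M, NLRC5 and MICB were picked after their values were seen. HLA heavy chain genes resemble each other closely, and reads may be split between them. Only 1 HLA class II gene had enough reads to be tested, and it was not called.

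On the cell surface, the immunoglobulin superfamily adhesion molecules had 10 of 31 tested that rose and 2 that fell, 8 and 2 of them in every fit. BCAM, the Lutheran receptor for laminin, fell from 100.5, 96.05 and 92.04 CPM to 31.5, 26.8 and 31.4 CPM and held 139, 138 and 125 CPM in Ctrl, so the p53 KO libraries alone were below 40 CPM (log2 fold change -1.69 ± 0.09, adjusted p = 1.19e-06). CADM4 fell (-0.71 ± 0.08). CEACAM6 rose from 0.115, 0.115 and 0.0461 to 2.15, 2.74 and 2.03 CPM, a ratio of 24.5 (95% interval 11.6 to 61.8), beside CEACAM5, whose gene lies 20543 bases away and is similar in sequence. VTCN1 (B7-H4), a T cell inhibitor, rose by 3.39 ± 0.41, from 0.191, 0.0385 and 0.0923 to 1.17, 1.103 and 1.29 CPM.

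Gap junction genes fell more often than they rose, with 5 of 12 connexins and pannexins down and 2 up. GJA1 (connexin 43) had 9.602, 9.77 and 9.09 CPM in parental, 1.58, 2.13 and 1.39 CPM in p53 KO and 34.8, 39.97 and 46.9 CPM in Ctrl libraries. The 3 groups did not overlap, with p53 KO lowest and Ctrl highest (log2 fold change of p53 KO over parental -2.47 ± 0.17, adjusted p = 6.54e-06). GJB6 (connexin 30) fell (-1.11 ± 0.19) and PANX2 (-1.14 ± 0.09), while GJB5 rose by 0.58 ± 0.10. Tight junction genes moved the other way, 6 up and 1 down of 18, 4 up in every fit, but 6 of the 18 lie in shifted stretches of the genome, and of the 12 others 2 rose and 1 fell. CLDN1 (claudin 1), on chromosome 3, rose from 42.8, 41.4 and 48.8 to 105, 94.4 and 87.8 CPM, by 1.11 ± 0.09, against a median of -0.36 for that stretch. TJP3, a scaffold of the junction, rose by 1.77 ± 0.17, from 4.17, 5.81 and 4.75 to 18.1, 15.8 and 16.3 CPM, and Ctrl was as high, at 22.2, 19.7 and 14.3 CPM.

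Of 15 integrin subunits, 4 fell and 1 rose, 3 falling in every fit. ITGB1 (integrin beta 1), the subunit that most matrix receptors share, fell from 768, 727 and 749 CPM to 474, 455 and 406 CPM, with no overlap (log2 fold change -0.75 ± 0.11, adjusted p = 0.00112), and lies on the falling part of chromosome 10. Its partner ITGA1 fell (-1.002 ± 0.19). Of 23 cadherins and protocadherins, 6 fell and 2 rose, with 3 and 1 in every fit, and with the length trend removed 5 fell and 6 rose. PCDH7 fell (-1.20 ± 0.14) and FAT4, a giant cadherin, from 0.421, 0.385 and 0.277 to 0, 0.0761 and 0 CPM, with a ratio of 13.9 (95% interval 3.5 to 121). PCDH1 rose from 64.8, 70.20 and 68.5 to 131, 132 and 130.4 CPM (by 0.95 ± 0.09), close to the 164, 141 and 129 CPM of Ctrl. CDH1 (E-cadherin), named for its place among the epithelial markers, had 361, 341 and 361 CPM in parental and 298, 289.7 and 265 CPM in p53 KO libraries, a log2 change of -0.32 ± 0.08 (adjusted p = 0.0245) whose call was lost in fits without 1 library.

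Receptor tyrosine kinases had 5 members that rose and 7 that fell of 27, 4 and 4 in every fit. MET, the receptor for hepatocyte growth factor, fell from 224, 210.5 and 217 CPM to 93.3, 97.7 and 78.1 CPM. Its p53 KO libraries were all below 100 CPM, the parental ones above 200 CPM, and Ctrl held 121, 194 and 201 CPM (log2 fold change -1.27 ± 0.16, adjusted p = 4.26e-04). RYK, a WNT co-receptor, fell (-0.59 ± 0.07). EPHB6 rose from 4.74, 5.16 and 3.51 to 14.4, 14.98 and 15.7 CPM (by 1.74 ± 0.13), with at most 0.114 CPM in a Ctrl library, and EPHB3 rose by 0.68 ± 0.12. Both ephrin receptors lie in stretches whose genes fell as a whole, EPHB6 on chromosome 7 and EPHB3 on chromosome 3.

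Of 79 G protein-coupled receptors, 10 rose and 14 fell, with 6 and 5 in every fit. ACKR3, an atypical receptor that takes up CXCL12, rose from 1.99, 1.65 and 2.26 to 14.3, 11.8 and 15.5 CPM. The p53 KO libraries were above 11 CPM and the others below 6, with Ctrl at 4.23, 5.62 and 3.85 CPM (log2 fold change 2.82 ± 0.18, adjusted p = 4.15e-06). HTR7, a serotonin receptor on chromosome 10, rose by 1.41 ± 0.13. ADGRL2 (latrophilin 2) fell (-2.39 ± 0.36), from 3.56, 3.35 and 4.06 to 0.839, 0.799 and 0.347 CPM, and GPR160 (-1.03 ± 0.12).

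Receptors for cytokines, interferons and the TNF family had 12 that rose and 5 that fell of 51, 10 and 4 in every fit. Beside CSF2RA, TLR4, the receptor for lipopolysaccharide, rose from 1.61, 1.89 and 2.54 to 9.19, 7.15 and 5.95 CPM (by 1.91 ± 0.26) and TLR1 by 1.95 ± 0.42. TNFRSF21 (death receptor 6) fell from 518, 522 and 506 to 376, 383 and 375 CPM, a small change of -0.45 ± 0.07 in a highly expressed gene, IL17RA fell (-0.41 ± 0.08) and IL17RD (-1.42 ± 0.30). In the TGF-beta group, TGFBR3 (betaglycan) fell (-1.13 ± 0.20) and NEO1 (neogenin) (-0.89 ± 0.10), 2 of 13 tested, and 1 rose, a call that was lost without some of the libraries.

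Guidance receptors and their ligands were divided, 9 up and 9 down of 34 (52.9% called). PLXND1 (plexin D1), a semaphorin receptor, fell from 28.7, 24.9 and 24.7 CPM to 5.03, 4.87 and 4.07 CPM, while Ctrl kept 25.5, 27.1 and 26.6 CPM, inside the parental range or just above it (log2 fold change -2.48 ± 0.11, adjusted p = 3.25e-07). ROBO3 fell (-1.75 ± 0.27) and SEMA6C (-0.96 ± 0.20). SLIT2, the secreted ligand of ROBO receptors, rose by 1.91 ± 0.19, from 1.798, 1.65 and 1.71 to 6.94, 6.35 and 6.05 CPM, and UNC5B, a netrin receptor on chromosome 10, by 1.79 ± 0.12. Receptor-type phosphatases had 4 that rose and 1 that fell of 10, and PTPRM rose by 1.04 ± 0.17 and PTPRU by 0.68 ± 0.08 beside PTPRR.

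Ion channels (9 up, 9 down of 69) and solute carriers (20 up, 22 down of 202, median log2 change -0.0039) had no common direction, and without 1 library the called solute carriers went from 42 to between 21 and 29, with 8 up and 9 down in every fit. ANO1, a calcium-activated chloride channel amplified in many squamous cancers, was among the abundant ones. It rose from 86.4, 78.6 and 80.69 CPM to 222, 223 and 219 CPM and stood at 12.7, 16.1 and 13.5 CPM in Ctrl, so that the groups were ordered p53 KO, parental, Ctrl with no overlap (log2 fold change 1.43 ± 0.09, adjusted p = 2.99e-06). CLCA2 rose by 1.97 ± 0.22, KCNJ5 by a ratio of 12.6 (95% interval 4.63 to 47.9), and KCNMB4, a regulatory subunit of BK potassium channels, fell (-1.64 ± 0.27), as did KCNMB3 (-0.86 ± 0.18) and KCNH3 (-0.98 ± 0.21). SLC12A7, a potassium-chloride cotransporter, fell (-1.48 ± 0.14) and SLC7A8 (-1.57 ± 0.35), while SLC7A2, a cationic amino acid transporter, rose by 1.09 ± 0.22, SLC16A14 by 1.38 ± 0.29 and SLC25A28, a mitochondrial iron carrier, by 0.70 ± 0.12. ABCA2 fell (-0.57 ± 0.08) and ABCC5 (-0.65 ± 0.08).

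Glycans and glycoproteins of the surface also changed in both directions. Of 81 glycosyltransferases, 16 rose and 15 fell, 11 and 9 in every fit. Besides B3GNT7, B3GALT5, which makes type 1 chains, rose by 2.13 ± 0.31, and the polysialyltransferase ST8SIA4 by 3.02 ± 0.43, from 0.0765, 0.154 and 0.0923 to 1.24, 0.609 and 0.844 CPM, whereas B4GALNT1, which makes gangliosides, fell (-0.70 ± 0.10) and B3GNT8 by a ratio of 11.4 (95% interval 3.56 to 57.9). MUC1 rose from 12.5, 11.2 and 12.8 to 25.3, 22.3 and 24.5 CPM (by 0.99 ± 0.11) and CD24 from 54.7, 60.93 and 63.4 to 136, 127 and 129.6 CPM (by 1.13 ± 0.08). All 3 membrane proteoglycans called, of 6 tested, fell, among them SDC3 (syndecan 3) (-0.69 ± 0.09). Tetraspan proteins had 7 up and 4 down of 31, with EMP3 up by 0.997 ± 0.17, TSPAN15 up by 0.87 ± 0.11, CMTM3 down (-2.13 ± 0.41) and TSPAN9 down (-0.62 ± 0.12). NOTCH1, a receptor of epidermal differentiation, had 57.6, 46.9 and 46.04 CPM in parental and 41.8, 42.1 and 42.4 CPM in p53 KO libraries and did not pass (adjusted p = 0.167), and of 10 Notch receptors and ligands none was called in every fit. The sheddase ADAM28 rose from 0, 0 and 0.0923 to 1.04, 1.22 and 0.496 CPM (ratio 35.3, 95% interval 9.44 to 297).

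Secreted proteins began with the chemokines, of which 5 of 8 tested rose and none fell, 4 in every fit, with a median log2 change of 1.54. CCL22 had 0.727, 0.616 and 0.8304 CPM in parental and 10.20, 7.76 and 6.45 CPM in p53 KO libraries and CCL28, a chemokine of mucosal epithelia, 0.689, 0.616 and 0.877 and 4.26, 3.84 and 3.47 CPM. For both, Ctrl lay near the parental range, at 0.459, 0.913 and 0.419 and 0.663, 0.386 and 0.419 CPM. The log2 fold changes were 3.50 ± 0.26 (adjusted p = 1.16e-05) and 2.42 ± 0.20 (adjusted p = 2.59e-05). CXCL1 had 0.115, 0.115 and 0.138 against 0.503, 0.494 and 0.397 CPM, a ratio of 3.87 (95% interval 1.83 to 9.14). Of 22 cytokines, 3 rose and 2 fell, a balance that turned to 4 and 8 with the length trend removed. TNFSF9 (4-1BB ligand) rose from 5.62, 4.69 and 5.21 to 17.1, 16.3 and 20.74 CPM (by 1.79 ± 0.16) and CSF2 (GM-CSF), the ligand of the CSF2RA receptor, from 0.612, 1 and 1.06 to 1.84, 2.47 and 2.93 CPM (by 1.43 ± 0.25), with Ctrl libraries below both groups at 0.306, 0.176 and 0.229 CPM. CSF1 fell (-0.40 ± 0.08) and IL12A (-0.83 ± 0.17).

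Ligands and antagonists of the TGF-beta family had 9 that rose and 1 that fell of 19, 5 and 1 in every fit, with a median log2 change of 0.33. TGFB2 rose from 2.87, 3.15 and 3.23 to 5.84, 7.49 and 6.698 CPM (by 1.11 ± 0.22) and was below both groups in Ctrl, at 0.102, 0.492 and 0.762 CPM. TGFB1 had 105, 106 and 90.01 CPM in parental and 81.8, 87.6 and 93.5 CPM in p53 KO libraries and did not pass (log2 change -0.20 ± 0.11, adjusted p = 0.262). The activin binders moved in opposite directions, FSTL3 up by 1.75 ± 0.20 and FST (follistatin) down (-0.74 ± 0.12). Among growth factors, 4 rose and 3 fell of 21. VEGFC, the lymphatic growth factor, rose from 23.9, 21.04 and 19.4 to 56.1, 58 and 65.1 CPM, with p53 KO highest and Ctrl lowest at 10.86, 10.50 and 11.2 CPM (log2 fold change 1.47 ± 0.10, adjusted p = 4.82e-06), while VEGFA, at 184, 203 and 184 CPM in parental and 164, 174 and 156 CPM in p53 KO libraries, did not pass (-0.21 ± 0.07, adjusted p = 0.0717). MDK (midkine) rose by 0.91 ± 0.15 and FGF2 by 0.84 ± 0.13, and NTF3 fell (-1.01 ± 0.17), FGF11 (-0.77 ± 0.14) and BDNF (-0.58 ± 0.10). Of the 8 EGF family ligands tested, NRG1 (neuregulin 1) rose by 0.83 ± 0.17, and BTC (betacellulin) fell (-1.51 ± 0.21) and AREG (amphiregulin) (-0.46 ± 0.10). WNT10A rose by 0.99 ± 0.20, WNT7A by 0.52 ± 0.09, and the WNT antagonist DKK3 fell (-0.98 ± 0.10). IGFBP7 rose by 0.80 ± 0.14.

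Matrix genes changed in both directions. Of 19 collagen chains, 4 rose and 4 fell. COL17A1, the transmembrane collagen of hemidesmosomes, rose from 107, 95.8 and 96.2 CPM to 275, 288 and 271 CPM, while Ctrl stood at 86.3, 92.2 and 103 CPM (log2 fold change 1.48 ± 0.08, adjusted p = 1.98e-06). Only the p53 KO libraries were above 200 CPM. The gene lies on chromosome 10, and its change was well above the median of 0.45 there. COL13A1 rose by 1.99 ± 0.35, COL8A1 was read in p53 KO libraries alone (0.537, 0.761 and 0.447 CPM, at least 4.73-fold higher), and COL4A5 and COL6A1 fell (-1.34 ± 0.12 and -1.36 ± 0.17). Laminin 332, which anchors basal keratinocytes, had LAMA3 up by 0.59 ± 0.12 and LAMB3 up by 0.46 ± 0.08. Of 27 other matrix proteins, 7 rose and 4 fell, 3 and 3 in every fit, among them SPOCK1 up from 33.7, 32.1 and 31.3 to 68.6, 73.7 and 63.01 CPM (by 1.08 ± 0.15), HMCN2 up by 1.83 ± 0.31, SRPX2 up by 0.73 ± 0.11, MATN2 down (-1.02 ± 0.09), CYR61 down (-0.89 ± 0.12) and FN1 (fibronectin) down (-0.68 ± 0.13). Besides PLOD2, the collagen-modifying enzymes had PCOLCE2 down (-1.59 ± 0.15), TGM2 (tissue transglutaminase) down (-0.62 ± 0.11) and BMP1 up by 0.61 ± 0.07.

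Proteases and their inhibitors rose more often than they fell. Of 33 kallikreins, plasminogen activators and other serine and cysteine proteases 11 rose and 2 fell, of which 8 rose in every fit and neither fall was kept. PRSS12 rose from 2.33, 2.42 and 2.03 to 8.96, 8.63 and 7.79 CPM (by 1.90 ± 0.13), TMPRSS4 from 4.17, 4.38 and 4.798 to 14.9, 11.98 and 12.8 CPM (by 1.58 ± 0.14) and PLAT, the tissue plasminogen activator, from 4.28, 5.001 and 6.69 to 14.2, 13.1 and 12.4 CPM (by 1.32 ± 0.15). PRSS12 and TMPRSS4 were nearer to the p53 KO libraries in Ctrl than PLAT was, at 6.02, 6.67 and 5.41 and 7.801, 7.24 and 5.64 CPM against 3.57, 3.197 and 3.698 CPM. Of 16 secreted metalloproteases, 5 rose, all 5 in every fit, and 3 fell. MMP2 (gelatinase A), which degrades matrix, had 5.47, 5.19 and 5.91 CPM in parental, 15.6, 16.2 and 17.6 CPM in p53 KO and 0.204, 0.105 and 0.0381 CPM in Ctrl libraries, with no overlap among the 3 groups (log2 fold change 1.57 ± 0.12, adjusted p = 1.49e-05). MMP28 (epilysin) rose by 1.84 ± 0.18, ADAMTS2, which trims procollagen, by 2.62 ± 0.58, and ADAMTS15 fell (-0.55 ± 0.11). Among 30 inhibitors, 9 rose and 2 fell. SLPI rose by 1.71 ± 0.15, SPINK5, the inhibitor of epidermal kallikreins, by 1.68 ± 0.30 and SERPINB3 by 2.69 ± 0.54, and CST6 (cystatin M) fell from 16.8, 16.7 and 17.7 to 4.16, 5.33 and 6.599 CPM (-1.69 ± 0.19).

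S100 and antimicrobial proteins had 7 that rose and none that fell of 15, 5 in every fit, with a median log2 change of 0.38. S100A9, a subunit of calprotectin, rose from 0.115, 0.192 and 0.138 to 1.07, 1.25 and 1.49 CPM (by 3.03 ± 0.34), LCN2 (lipocalin 2) from 31.9, 32.04 and 30.63 to 69.8, 51.4 and 70.80 CPM (by 1.02 ± 0.16) and LYZ (lysozyme) from 0.0382, 0.192 and 0.138 to 1.34, 0.646 and 0.844 CPM (by 2.93 ± 0.52). LCN2 was at least as high in Ctrl, at 105, 86.8 and 69.01 CPM. Of 17 complement and coagulation genes, 5 rose and 3 fell, 3 and 1 in every fit. C3, the central complement protein, went from 157, 149 and 151 to 397, 329 and 316 CPM, with Ctrl between the groups at 282, 258 and 253 CPM (log2 fold change 1.19 ± 0.09, adjusted p = 1.38e-05). CLU (clusterin) rose by 0.96 ± 0.18, and CD55, which protects cells from complement, fell (-0.42 ± 0.08).

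Regulatory genes were called about as often as all genes (17.6% against 18.1%), and within them a few families stood apart. Factors of epithelial and keratinocyte identity had 10 that rose and 4 that fell of 27, 6 and 2 in every fit. GRHL3 (grainyhead-like 3), needed for the skin barrier, fell from 13.7, 14.9 and 15.2 CPM to 3.12, 4.49 and 2.98 CPM and was at 26.5, 25.5 and 26.6 CPM in Ctrl, with no overlap among the 3 groups (log2 fold change -2.04 ± 0.14, adjusted p = 6.29e-06). KLF8, a factor tied to loss of epithelial character, fell (-2.57 ± 0.32), from 2.07, 1.81 and 2.26 to 0.436, 0.3803 and 0.149 CPM. OVOL2, which represses mesenchymal genes, rose by 1.45 ± 0.19, ZEB2, a repressor of epithelial genes, by 0.92 ± 0.18, and KLF4, a factor of keratinocyte differentiation, by 0.62 ± 0.08, from 59.8, 59.9 and 59.05 to 92.8, 88.3 and 93.6 CPM. The Kruppel-like list had 4 falls of 18, with KLF12 down (-0.98 ± 0.18) and KLF6 down (-0.63 ± 0.11).

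Homeobox factors had 5 that rose and 8 that fell of 71, 7 of them past 1.5, SATB1 and EN1 among those that fell. TSHZ3 had no read in parental and 0.5703, 0.418 and 0.595 CPM in p53 KO libraries (at least 4.3-fold higher). Helix-loop-helix factors had 7 up and 2 down of 46, with NPAS2, a clock factor, up by 2.36 ± 0.21, ARNT2 by 1.58 ± 0.24 and the MYC antagonist MXD1 by 0.87 ± 0.11. MYC itself stood at 184, 182 and 162 CPM in parental and 164, 169.5 and 178 CPM in p53 KO libraries (log2 change -0.05 ± 0.07, adjusted p = 0.684).

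In the AP-1, ATF and CEBP families, 4 rose and 4 fell of 45. The stress factor ATF3 rose by 1.24 ± 0.12, CEBPA by 0.79 ± 0.14 and CEBPB by 0.48 ± 0.10, and CREB3L2 and CREM fell (-1.05 ± 0.17 and -0.49 ± 0.09), while FOS had 7.34, 7.81 and 7.06 and 7.95, 6.46 and 6.85 CPM (adjusted p = 0.75). Forkhead and SOX factors had 8 up and 5 down of 31, 5 and 2 in every fit. FOXQ1 rose from 24.2, 20.81 and 21.7 to 39.5, 41.04 and 43.5 CPM (by 0.89 ± 0.08), FOXL1 by 0.85 ± 0.14 and FOXO6 by 1.04 ± 0.20, and FOXE1 and FOXO4 fell (-1.33 ± 0.18 and -0.68 ± 0.10). The vitamin D receptor VDR rose by 0.43 ± 0.07. Of the IRF, STAT and NF-kappaB factors, 3 rose and 3 fell of 34, and NFATC2, up by 2.09 ± 0.32, was the only 1 called in every fit.

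Targets of wild-type p53 did not move as a block: 8 of 34 tested rose, 4 fell and the median log2 change was 0.0010. GADD45A, a DNA damage inducible gene, fell from 27.8, 23.8 and 20.90 to 10.67, 11.9 and 13.3 CPM (-1.02 ± 0.13), ZMAT3, an RNA-binding target, (-1.38 ± 0.19), and CYFIP2, an actin regulator of the WAVE complex, from 0.727, 0.846 and 0.646 to 0.0335, 0 and 0 CPM (ratio 56.8, 95% interval 9.78 to 2285). PMAIP1 (NOXA), which promotes apoptosis, rose from 12.9, 16 and 15.7 to 31.3, 30.62 and 28.3 CPM (by 1.02 ± 0.11), PERP, a desmosomal protein, by 0.61 ± 0.07 and FAS, a death receptor, by 0.61 ± 0.10. PERP and FAS lie in stretches of chromosomes 6 and 10 that rose, and ZMAT3 in the stretch of chromosome 3 that fell. Outside the shifted stretches, 3 of these targets rose and 3 fell of 27. MDM2 had 94.7, 87.9 and 94.3 CPM in parental and 89.4, 87.4 and 77.8 CPM in p53 KO libraries (log2 change -0.12 ± 0.14, adjusted p = 0.6). CDKN1A (p21), the cell cycle inhibitor, had 5.32, 4.54 and 5.63 CPM in parental and 7.55, 6.199 and 8.04 CPM in p53 KO libraries. Those values did not overlap, but the change of 0.49 ± 0.14 (adjusted p = 0.0313) lost its call in fits without 1 library.

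The Hippo list had 7 that fell and 1 that rose of 24, with a median log2 change of -0.22, and 4 fell in every fit. Its transcriptional target CYR61 had 144, 119 and 118 CPM in parental and 57.9, 69.1 and 78.9 CPM in p53 KO libraries, without overlap (log2 fold change -0.89 ± 0.12, adjusted p = 4.55e-04). VGLL1, a partner of TEAD factors, fell (-1.43 ± 0.13), from 31.9, 29.5 and 31.2 to 11.6, 10.04 and 12.8 CPM, while Ctrl held 102, 86.8 and 73.2 CPM. YAP1, the effector of the pathway, had 148, 142 and 145 CPM in parental and 124, 124 and 106 CPM in p53 KO libraries (log2 change -0.30 ± 0.14, adjusted p = 0.171). Feedback genes of MAP kinase signalling had 6 up and 3 down of 30. EGR1, an immediate early factor, fell from 118, 107 and 99.97 to 52.7, 41.4 and 46.2 CPM (-1.21 ± 0.10, adjusted p = 2.05e-05) and ERRFI1 (MIG6), an inhibitor of EGFR, (-0.69 ± 0.10), whereas SPRY2 rose by 1.56 ± 0.25, IER3 by 0.95 ± 0.10 and the phosphatase DUSP4 by 0.79 ± 0.10.

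Small GTPase and lipid signalling genes were called on both sides. ARHGEF26, an exchange factor, went from 1.95, 1.92 and 2.03 CPM to no read (at least 16.2-fold lower), ARHGAP21 fell (-0.82 ± 0.15) and ARHGAP8 (-0.89 ± 0.17), and ARHGAP30 and NGEF rose by 1.48 ± 0.32 and 0.71 ± 0.14. RASAL1, a Ras GTPase activating protein, rose by 1.36 ± 0.16 and the exchange factor RASGRF1 fell (-0.68 ± 0.08). In phosphoinositide and phospholipase signalling, with 8 up and 8 down of 58, PLCG2 rose from 3.37, 4.08 and 4.34 to 18.2, 17.3 and 16.1 CPM (by 2.14 ± 0.12) and the phosphatase INPP5D by 1.78 ± 0.19. PIK3CA, the catalytic subunit of PI3 kinase, fell from 58.1, 58.1 and 60.67 to 36.7, 35.1 and 28.7 CPM (-0.81 ± 0.14) on chromosome 3, PLCXD2 (-1.26 ± 0.15) and INPP5J (-1.17 ± 0.21).

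Chromatin genes were called less often than all genes (18.1%) in the fit of all 9 libraries. Of 95 histone-modifying enzymes 5 rose and 3 fell (8.42%), 1 and 2 in every fit. Of 70 remodellers and DNA methylation enzymes 3 rose and 8 fell (15.7%), 2 and 3 in every fit. Outside the shifted stretches, histone-modifying enzymes had 5 up and 1 down of 87, and the remodeller list 2 up and 5 down of 63. The low share of the histone-modifying enzymes depended on the fit. With only the 6 libraries 32 of them were called, while calls of all genes went from 2631 to 4831. With the length trend removed 23 were called, while calls of all genes went to 3415. KDM1A (LSD1), a histone demethylase, rose from 398, 412 and 406 CPM to 613, 629 and 616 CPM, and Ctrl was below both at 335, 299.8 and 306 CPM (log2 fold change 0.61 ± 0.06, adjusted p = 1.15e-04). KDM7A fell (-1.31 ± 0.23) and EZH1 (-0.48 ± 0.09). The DNA methyltransferase DNMT3A fell (-1.18 ± 0.15) and the remodeller CHD7 (-1.24 ± 0.23), and SMARCA2 and ARID5B rose by 1.72 ± 0.32 and 0.95 ± 0.16. Zinc finger genes of the ZNF series were called less often than all genes, 29 up and 10 down of 424 (9.20%), 11 and 3 in every fit. Beside ZNF813, ZNF69 rose by 1.91 ± 0.37, ZNF365 by 1.31 ± 0.19 and ZNF487 by 1.06 ± 0.15. TRIM ubiquitin ligases had 12 up and 2 down of 43, 7 and 1 in every fit. TRIM31 rose from 4.28, 4.38 and 5.21 to 20.46, 16.7 and 14.2 CPM (by 1.90 ± 0.19) and TRIM24 fell (-0.82 ± 0.13).

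Long intergenic non-coding RNAs had 18 that rose and 10 that fell of 129 (21.7%), 8 and 7 in every fit. LINC00431 had 0.0382, 0 and 0.0923 CPM in parental and 1.38, 1.22 and 1.74 CPM in p53 KO libraries, a ratio of 34.8 (95% interval 11.6 to 172), LINC00887 rose by 1.95 ± 0.37 and LINC00668 by 1.83 ± 0.24. LINC01322 fell by a ratio of 9.3 (95% interval 2.86 to 47.9), and LINC00638 and LINC00899 fell (-1.12 ± 0.24 and -1.12 ± 0.15). All of these are below 5 CPM. Of 82 splicing regulators, 5 rose and 7 fell, 3 and 4 in every fit. HNRNPF rose from 579, 547 and 547 to 783, 797 and 838 CPM (by 0.53 ± 0.06) on chromosome 10 and its relative HNRNPH1 fell from 661, 646 and 614 to 455, 488 and 458 CPM (-0.46 ± 0.06), while RBM48 rose by 0.48 ± 0.09 and IGF2BP2, an mRNA stabiliser, fell (-0.54 ± 0.08).

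Inside the cell, keratins had 6 that rose and none that fell of 17, against 9.77% of all genes that rose. Each of the 6 was called in every fit without 1 library. With the length trend removed, 6 rose and 3 fell. KRT6A, the keratin of wounded and hyperproliferative epidermis, had 15.3, 13.5 and 13.3 CPM in parental and 68.3, 69.1 and 77.8 CPM in p53 KO libraries. The p53 KO libraries were all above 60 CPM and the Ctrl libraries, 10.86, 9.8 and 11.2 CPM, lay below the parental ones (log2 fold change 2.35 ± 0.10, adjusted p = 2.14e-07). KRT6B, whose gene lies 35029 bases away and is nearly identical, had 0.2295, 0.192 and 0.0461 and 2.18, 2.396 and 2.88 CPM, and reads may be split between them. KRT4, a keratin of mucosal epithelium, rose from 4.21, 3.81 and 3.65 to 26.4, 22.8 and 24.7 CPM (by 2.66 ± 0.12) and was higher still in Ctrl, 39.8, 37.6 and 32.2 CPM. The others that rose, named because they complete the list, were KRT16 (1.61 ± 0.33), KRT15 (0.77 ± 0.15) and the basal keratin KRT5 (0.43 ± 0.08), which went from 441, 448 and 445 to 594, 589 and 616 CPM. KRT15 was higher still in Ctrl, at 223.3, 173.5 and 136.1 CPM against 84.93, 71.35 and 76.26 CPM in p53 KO libraries. KRT5 in Ctrl, at 690.3, 561.7 and 569.6 CPM, overlapped the p53 KO libraries. KRT6B and KRT16 in Ctrl were below the p53 KO libraries, at 0.153, 0.0351 and 0.0381 CPM and at 1.02, 0.281 and 0.4575 CPM. VIM (vimentin), the mesenchymal intermediate filament, had 0.306, 0.231 and 0.5998 CPM in parental, 1.27, 1.86 and 1.94 CPM in p53 KO and 1.27, 0.773 and 0.801 CPM in Ctrl libraries. It rose by 2.17 ± 0.35 from a low level, in a stretch of chromosome 10 that fell.

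Epidermal differentiation genes had 7 up and 2 down of 22, 6 and 1 in every fit. With CASP14 and SERPINB3, SPRR1B, a cornified envelope protein, rose from 0.115, 0.231 and 0.323 to 0.973, 0.837 and 1.19 CPM (by 2.16 ± 0.36). CALML3, a calmodulin-like protein of keratinocytes, fell from 41.9, 39.4 and 42.95 to 18.2, 15.5 and 18.7 CPM (-1.25 ± 0.15), and Ctrl was above both at 136, 101 and 88.2 CPM.

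Genes of the actin cytoskeleton fell more often than they rose, 23 down and 10 up of 83 (39.8% called), with a median log2 change of -0.13 and 13 and 7 in every fit. In the contractile group, MYL9, a regulatory light chain of myosin II, fell from 48.01, 44.9 and 46.6 CPM to 14.2, 13.96 and 17.6 CPM (log2 fold change -1.61 ± 0.12, adjusted p = 1.11e-05) and TAGLN (transgelin) from 4.63, 4.19 and 5.03 to 0.939, 1.64 and 0.794 CPM (-2.01 ± 0.22). MYL9 stayed at 40.13, 35.2 and 30.77 CPM in Ctrl, between the groups, while TAGLN in Ctrl, at 1.48, 1.26 and 1.18 CPM, overlapped the p53 KO libraries. MYH9, the main heavy chain of non-muscle myosin II, fell from 2112, 1613 and 1628 to 1138, 1203 and 1239.8 CPM (-0.58 ± 0.11), and parental replicate 1 was the highest. The formin FMNL1 fell (-2.07 ± 0.34). Among widely expressed members chosen after their values were seen, TPM4 fell (-0.37 ± 0.06), ZYX (zyxin) (-0.53 ± 0.09), MYO1C (-0.36 ± 0.06) and MYH10 (-0.63 ± 0.13). LIMCH1, an activator of myosin II, rose from 1.91, 2.85 and 2.68 to 22.1, 22.2 and 17.8 CPM (by 3.07 ± 0.15, adjusted p = 1.05e-06), with under 0.5 CPM in every Ctrl library, and the myosin MYO7B by a ratio of 4.95 (95% interval 2.39 to 11.5). ACTB stood at 9705, 9013 and 9325 CPM in parental and 8652, 8619 and 10395 CPM in p53 KO libraries, which overlapped (adjusted p = 0.902), as did the smooth muscle actin ACTA2 at 3.405, 3.62 and 3.55 and 4.63, 3.88 and 3.23 CPM (adjusted p = 0.537).

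Metabolic lists held some of the largest single changes. Of 35 genes of aldehyde dehydrogenases and retinoid metabolism, 8 rose and 3 fell, 7 and 3 in every fit. With ALDH2, the mitochondrial folate enzyme ALDH1L2 fell from 7.27, 6.96 and 6.97 to 1.48, 1.41 and 1.19 CPM (-2.36 ± 0.20), and RARRES1, a retinoid-induced gene, from 2.07, 1.92 and 2.03 CPM to no read (at least 16.6-fold lower) while Ctrl held 12.4, 9.41 and 9.61 CPM. RARRES3 rose from 6.27, 8.04 and 7.797 to 26.4, 23.7 and 26.4 CPM (by 1.79 ± 0.17), the retinol dehydrogenase DHRS9 by 2.37 ± 0.39 and RDH16 by a ratio of 11 (95% interval 4.46 to 35.3). Of 14 genes of arachidonate metabolism, 5 rose and 1 fell. ALOX5 (5-lipoxygenase), on chromosome 10, rose from 1.07, 1.04 and 1.11 to 9.32, 7.26 and 6.896 CPM, with Ctrl between at 3.01, 3.197 and 2.82 CPM (log2 fold change 2.87 ± 0.16, adjusted p = 2.02e-06), PTGES, a prostaglandin E synthase, by 1.17 ± 0.11, and PTGIS, the prostacyclin synthase, by a ratio of 8.9 (95% interval 3.55 to 28.7).

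Genes of the hypoxia response had 7 up and 2 down of 27. STC1 (stanniocalcin 1) rose from 0.0382, 0.0385 and 0.0461 to 0.805, 0.609 and 0.695 CPM (ratio 17.4, 95% interval 5.65 to 87.1), DDIT4 (REDD1), an inhibitor of mTORC1, from 238, 276 and 269.8 to 643, 544 and 585 CPM (by 1.18 ± 0.12) and EGLN3 by 0.61 ± 0.13. DDIT4 lies on the rising part of chromosome 10 and was also high in Ctrl, at 594, 525 and 418 CPM. Glycolysis had 6 up and none down of 23, 3 in every fit. PGAM1 rose by 0.63 ± 0.08, PFKFB4 by 0.56 ± 0.10 and HK1 by 0.41 ± 0.06. PGAM1 and HK1 lie on the rising part of chromosome 10. Outside shifted stretches glycolysis had 4 up and none down of 19. In the cholesterol pathway, with 3 up and 6 down of 26 and 1 and 2 in every fit, SREBF2 fell (-0.37 ± 0.06) and LSS (-0.39 ± 0.08), and ACAT2 rose by 0.56 ± 0.09. SCD, the stearoyl-CoA desaturase, rose by 0.46 ± 0.09 and ACSL5 by 0.38 ± 0.08, and ACACB fell by a ratio of 6.72 (95% interval 2.82 to 19.4). SCD and ACSL5 also lie on the rising part of chromosome 10, and ACAT2 in the stretch of chromosome 6 that rose. Fatty acid synthesis had 4 up and 1 down of 23, and outside shifted stretches 2 up and 1 down of 20. Of 41 NRF2 targets and glutathione enzymes, 7 rose and 5 fell, 6 and 1 in every fit. Outside shifted stretches, 1 rose and 4 fell of 32. AKR1C2 rose by 1.60 ± 0.25 and AKR1C1 by 0.95 ± 0.21, a near-identical pair whose reads may be shared. AKR1B1 fell from 254, 264 and 269.8 to 186, 167 and 181 CPM (-0.56 ± 0.10). The pair lies on the part of chromosome 10 that fell, and AKR1B1 on the part of chromosome 7 that fell.

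Lists tied to amino acids, stress and death gave further named changes. Of 36 genes for tRNA charging and amino acid synthesis, 9 rose and none fell, 5 in every fit, with CHAC1, which degrades glutathione, up by 0.63 ± 0.11 and ALDH18A1, a proline synthesis enzyme, up by 0.57 ± 0.06, while ATF4, their activator, had 324, 329 and 330.3 and 359, 351 and 379 CPM (adjusted p = 0.327). The unfolded protein response had 5 down and none up of 26, 3 in every fit: DNAJB9 fell (-0.998 ± 0.16), PDIA4 (-0.40 ± 0.07) and HYOU1 (-0.35 ± 0.07). HSPA5 (BiP), its main chaperone, had 988, 939.5 and 929 and 924, 959 and 997 CPM (adjusted p = 0.931). Of 62 heat shock and DNAJ proteins, 7 rose and 9 fell, with DNAJC15 up by 2.16 ± 0.25, BAG4 up by 0.72 ± 0.11, DNAJC9 up by 0.61 ± 0.08, DNAJC13 down (-0.78 ± 0.15) and HSPB8 down (-0.69 ± 0.13). In the BCL2 and caspase list, with 8 up and 1 down of 32, BMF, a BH3-only protein, rose by 1.40 ± 0.22 and CASP1, the inflammatory caspase, by 1.16 ± 0.14. In lysosomes and autophagy, 5 rose and 8 fell of 63, 2 and 3 in every fit, among them ATG16L1 up by 0.40 ± 0.07, ATP6V1B2 up by 0.61 ± 0.07, MCOLN3 down (-1.29 ± 0.12), ATP6V1C1 down (-0.52 ± 0.11) and ULK1 down (-0.45 ± 0.10).

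Apart from cyclins and their kinases (19.0%), each list of growth and housekeeping genes had at most 15.4% called, against 18.1% of all genes. These shares are from the fit of all 9 libraries, and the number called depended on the fit. DNA replication had 5 up and 1 down of 47, 3 up in every fit, with MCM7 up by 0.42 ± 0.08, GINS4 by 0.41 ± 0.07 and RFC2 by 0.41 ± 0.09, mitosis had 4 and 2 of 46, where only CDK1, up by 0.47 ± 0.07, was called in every fit, and cyclins and their kinases 7 and 4 of 58, 3 up in every fit, with CDKN2C up by 0.44 ± 0.09. RFC2 and CDK1 lie in stretches that rose. Outside shifted stretches, DNA replication had 4 up and none down of 41, and mitosis 2 up and none down of 40. DNA repair had 5 down and none up of 54, and none of the 5 was kept in every fit. Replication-dependent histones, most of which lack the poly(A) tail that these libraries select, had 2 down of 32, neither in every fit. Proteasome subunits had 5 up and 2 down of 46, 2 to 4 called without 1 library, PSMC2 falling (-0.42 ± 0.07). Cytosolic ribosomal proteins had 11 up and none down of 79 (13.9%), with a median log2 change of 0.30, but only RPS24 (0.77 ± 0.10, from 632, 679.7 and 648 to 1098, 1060.5 and 1184 CPM) and RPS12 (0.73 ± 0.13) were called in every fit, and both lie in stretches that rose. Nuclear-encoded subunits of the respiratory chain had 9 up and 1 down of 89, a median of 0.20 and 3 to 5 called without 1 library, with COX6B2 up by 1.68 ± 0.25 and COX15 by 0.59 ± 0.06, and mitochondrial ribosomal proteins 11 and 1 of 78, a median of 0.19 and 4 to 5 called without 1 library, with MRPS16 up by 0.67 ± 0.07, MRPL43 by 0.67 ± 0.11 and MRPL18 by 0.62 ± 0.08. MRPS16, MRPL43, MRPL18 and COX15 lie in stretches that rose. Outside shifted stretches, mitochondrial ribosomal proteins had 8 up and 1 down of 70, and respiratory chain subunits 6 up and none down of 77. Of the 13 mitochondrially encoded genes on the list, none was called by edgeR in the fit of 9 libraries, at a median of -0.47. DESeq2 called 1 of the 13, the fit without p53 KO replicate 2 called 2, and the fit of only the 6 libraries 2. With the length trend removed 2 were called, and with no filter 10. Off that list, in the fit of 9 libraries, 1 of 4 mitochondrial tRNA genes and 1 of 2 mitochondrial ribosomal RNA genes were called higher. The fit of only the 6 libraries called 68 of the cytosolic ribosomal proteins, 43 of the respiratory chain subunits, 40 of the mitochondrial ribosomal proteins, 20 of the proteasome subunits and 19 of the DNA replication genes, and the one with no filter called 52 of the cytosolic ribosomal proteins.

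Changes of at most 0.5 made up 44.5% of the calls, at a median expression of 50.4 CPM. Of the 5 most expressed genes in this class that fell, only ACTN1 (alpha-actinin 1), from 1479, 1354 and 1343 to 1058, 1096 and 1135 CPM (-0.34 ± 0.06, adjusted p = 0.0033), was called in every fit, and none of the 5 most expressed that rose was. TUBB (beta-tubulin), with 3951, 3890.3 and 3856 CPM in parental and 4437, 4411 and 4912 CPM in p53 KO libraries, is one of these: the groups did not overlap, and the change of 0.23 ± 0.07 (adjusted p = 0.0406) lost its call in fits without 1 library. In the class from 0.5 to 1, the most expressed genes with calls kept in every fit were RPS24, TCP1, a chaperonin subunit (0.57 ± 0.06), NOLC1, a nucleolar protein (0.59 ± 0.08), and HNRNPF among those that rose, and MYH9, ITGB1, PTRF (cavin 1, -0.58 ± 0.09) and AP2M1, a clathrin adaptor subunit (-0.66 ± 0.08), among those that fell. PTRF fell from 699.6, 642 and 628 to 399, 454 and 464 CPM and AP2M1 from 443, 437 and 436 to 272, 267 and 294 CPM. RPS24, NOLC1, HNRNPF and TCP1 lie in the stretches of chromosomes 10 and 6 that rose, described next. ITGB1 and AP2M1 lie in stretches that fell.

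Much of the smaller change was shared by neighbours in the genome. In 23 of 162 windows of 20 Mb, the median log2 change of the tested genes was beyond 0.2 in size. These windows held 1815 genes, of which 877 were called (48.3%), against 1754 of 12698 outside (13.8%). Of the called genes, 32.8% of those up to 0.5, 40.2% of those from 0.5 to 1, 26.2% of those from 1 to 1.5 and 19.1% of those above 1.5 lay in such windows. On chromosome 10, 262 genes rose and 5 fell of 442 between 40 and 140 Mb, with a median of 0.45, while 12 rose and 63 fell of 141 between 0 and 40 Mb, with a median of -0.34. Between 100 and 200 Mb of chromosome 3, 10 rose and 190 fell of 422 (median -0.36). Between 20 and 40 Mb of chromosome 8, 65 rose and none fell of 93 (median 0.49), and between 120 and 180 Mb of chromosome 6, 72 rose and 3 fell of 161 (median 0.36). Chromosome 7 had medians of 0.22 between 0 and 20 Mb, 0.30 between 60 and 100 Mb and -0.34 between 120 and 160 Mb. In Ctrl against parental the same stretches had medians of -0.08 and -0.03 on chromosome 10, 0.13 on chromosome 3, 0.0079 on chromosome 8, -0.10 on chromosome 6 and -0.03, -0.14 and 0.17 on chromosome 7. A further 2 stretches fell in p53 KO and had negative medians in Ctrl too: chromosome 18 between 0 and 20 Mb, at -0.25 in p53 KO and -0.33 in Ctrl, and chromosome 8 between 60 and 80 Mb, at -0.31 and -0.12. Whether copy number differed between the lines was not tested.

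**Figure D5:**
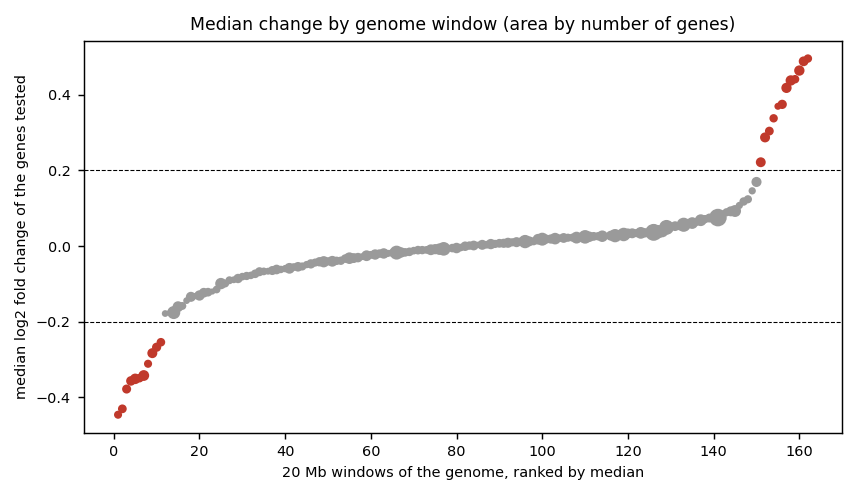
Each point is 1 of 162 windows of 20 Mb, ranked by the median log2 fold change of its tested genes (y axis), with an area that grows with the number of genes. Red points are the 23 windows past 0.2 (dashed lines), which reach medians near 0.5 on the upper side.

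Transcript length moved with the change as well. With genes divided by transcript length into 5 equal groups, from the shortest to the longest, the median log2 change was 0.115, 0.0669, 0.0331, -0.0422 and -0.137 in p53 KO and 0.186, 0.125, 0.0278, -0.0843 and -0.210 in Ctrl against the same parental libraries. The group of the shortest transcripts had 262 genes that rose and 88 that fell and that of the longest 213 and 369. With the length trend removed, a step added after seeing the data, the median of the cytosolic ribosomal proteins went from 0.297 to 0.183, that of the respiratory chain subunits from 0.20 to 0.12 that of the actin cytoskeleton from -0.13 to -0.066 (14 up, 28 down) and that of the interferon-stimulated genes from 0.563 to 0.516. Cytokines then had 4 up and 8 down in place of 3 and 2, and cadherins and protocadherins 6 up and 5 down in place of 2 and 6. Keratins had 6 up and 3 down in place of 6 and none, and their median went from 0.16 to 0.07. The part of RNA quality or library preparation in this trend was not tested.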

How the data were processed

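RNA-seq of A431 cells was measured in 9 libraries, 3 each of parental, p53 KO and Ctrl cells, grouped by their labels. Libraries were poly(A)-selected and strand-specific (200 ng RNA, 14 PCR cycles). The authors deposited raw counts per gene, which the submitters' processing notes tie to STAR 2.5.1b, GRCh38 and featureCounts; the strand setting of the counting is not given in the sources used here. From these counts, edgeR 4.0.16 in R 4.3.3 was run on all 9 libraries with its expression filter (filterByExpr, minimum count 10), TMM scaling and a quasi-likelihood test of p53 KO against parental, with p-values adjusted by Benjamini and Hochberg across the 14513 genes that passed the filter and called at 0.05. The library totals, 20597162 to 29840452 counts, set the precision of genes with few reads, and intervals on ratios cover counting error only. Steps were tested on simulated data. Positions and lengths of 14397 genes (99.2%) came from GENCODE release 44 on GRCh38, and promoter sequence from RefSeq on GRCh38.p14.

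Members and the 87 gene lists, from which 31 look-alike symbols were excluded, were chosen with earlier results of these data known. Named genes were genes of the p53 family and SH3BGRL, the 10 largest called changes each way above 3 counts, 5 each way nearly absent from 1 group, up to 3 each way per list, the 5 most expressed each way among small and moderate changes, and a best-known member per list; other genes were chosen after their values were seen. Alternatives were DESeq2 1.42.0, its size factors, 2 count filters, a replicate block, a fit of 6 libraries, a test against 1.2-fold, windows left out, each library left out, and, added after seeing the data, removal of the length trend. Python 3.11.15, pandas 2.3.3 and matplotlib 3.10.9 served for tables and figures, and limma 3.58.1 was loaded with edgeR. Protein sequences were not used here. Some results that the rule covers, the level of the targeted gene among them, are not reported here.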

Additional observations from a re-analysis of the deposited data

How the results depend on the processing

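No call of the 14513 genes changed sign under any alternative run. DESeq2 called 2820 genes and kept 94.8% of the 2631 calls, and DESeq2 size factors in edgeR called 2638 and kept 2605 of them. At least 10 counts in each of the 6 libraries left 90 of 283 calls past 1.5, since genes nearly absent from 1 group are removed. A fit of only the 6 libraries called 4831 genes (2490 up, 2341 down) and a test against a 1.2-fold change 1133 (681 up, 452 down). Leaving out the shifted windows left 906 genes that rose, and removing the length trend gave 1885 calls up to 0.5 in place of 1172. Without 1 library each, calls ranged from 1568 to 1786, rises from 875 to 1011, falls from 693 to 775 and calls past 1.5 from 274 to 301; the fits without a library kept 58.6% to 65.8% of the calls. The calls by size class and of Ctrl against parental (3291 by DESeq2, against 2943) moved by less than 1.5 times with DESeq2. Replicate numbers did not pair the samples: deviations of same-numbered libraries correlated at -0.041, 0.041 and -0.013, and with the replicate block 1757 genes were called (984 up, 773 down). The cause of these shifts was not tested, except for the count filter.

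Of the 417 named genes that were called, leaving out 1 library ended the call of 85 to 100, DESeq2 of 17, the 1.2-fold test of 132 and the block of 75. Counts of called list members moved by over 1.5 times in 54 of 87 lists with the 1.2-fold test, 42 with only the 6 libraries, 28 to 39 with 1 library left out, 27 with the block, 15 with the length trend removed, 12 with no filter, 6 with at least 10 counts, 2 with DESeq2 and 1 with its size factors. Of the genes with a fitted change of at most 0.5, 9.60% were called, against 96.3% of those above 1.5, and 3 libraries a group limit what can be called among small changes.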
